A study of Danio rerio with 6 samples.

Results

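The metadherin genes were taken as every counted gene whose symbol, ignoring case, begins with mtdh. The rule found 2 of the 31484 counted genes, mtdhb (ENSDARG00000004939) and its paralogue mtdha (ENSDARG00000014159). The source was whole embryos of the zebrafish, Danio rerio, aged 22 hours post fertilization. The wild-type group was labelled synpo2 wt/wt and the mutant group synpo2 -/-, with 3 biological replicates each. synpo2 encodes synaptopodin-2, which binds actin at the Z-disc of muscle. The lesion, the fish strain, whether the genotypes were clutch mates and the number of embryos per library are not stated in these labels. A difference in genetic background between the groups therefore cannot be told apart from the synpo2 genotype in any result below. mtdhb was picked because it was nearly absent in the mutants, so its difference between the genotypes is given below as a description, with no test. mtdha and the genes beside mtdhb were chosen by name and position, and their differences were tested. The metadherin genes as a topic were chosen with earlier results of these data known.

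Metadherin, also called AEG-1 or LYRIC, is a protein with a single membrane-spanning stretch and a long, basic, largely unstructured tail. It has been studied mainly in human and mouse cells, where it lies at the endoplasmic reticulum, the nucleus and cell junctions. There it binds SND1, a nuclease-domain protein of the RNA-induced silencing complex, and has been linked to NF-kB, PI3K-AKT and Wnt signalling. Zebrafish keep a pair of copies, a and b.

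Library totals ran from 32714170 to 142789686 counts, and wild type replicate 1 was 4.26 times as deep as the mean of the other 5. The labels do not state which synpo2 copy carries the lesion. The copy named among the counted genes, synpo2b, was at 4.65 ± 1.24 CPM in wild type against 1.60 ± 0.101 CPM in the mutants (CPM, counts scaled to library size with TMM factors; SD, n = 3 each), and the ranges were apart. The adjusted p was 0.15 by edgeR's quasi-likelihood test and 0.000114 by DESeq2. The like-named genes synpo2la and SYNPO2L were also lower on average, with overlapping ranges. They were at 18.9 ± 5.29 and 66.2 ± 11.2 CPM in wild type against 8.78 ± 3.98 and 50.3 ± 7.58 CPM in the mutants. Their edgeR adjusted p was 0.349 and 0.443. Of 21 symbols fixed as markers of embryonic tissues, 16 were matched, to 18 genes, and 17 of these genes held at least 1 CPM in every library, from muscle, nerve, notochord, blood, skin, heart and yolk lists. Summed over the 2 matched skeletal muscle markers, libraries held 2758 to 4082 CPM in wild type against 1758 to 2931 CPM in the mutants. Most of this sum is the actin gene actc1b (log2 fold change -0.64), while MYOG, the myogenin gene, was at 0.14, and neither passed the edgeR test. For the 2 yolk syncytial layer markers these ranges were 261.8 to 802.1 and 161.7 to 1891 CPM. The part of these shifts in the results below was not tested, and in RNA from whole embryos fewer cells of a type and less RNA per cell cannot be told apart.

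mtdhb RNA was present in all 3 wild-type libraries and almost missing from all 3 mutant libraries. The gene lies on the plus strand of GRCz10 chromosome 16, from 41767281 to 41782427, with 13 separate exonic blocks and 2226 nt of counted sequence. The wild-type libraries held 2678, 1083 and 753 mtdhb counts in replicates 1 to 3. The mutant libraries held 0, 3 and 11. All the mutant libraries together gave 14 mtdhb counts among 99768049.

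On the CPM scale the wild-type levels were 21.4, 28.2 and 22.7, and the mutant levels were 0, 0.0912 and 0.321. Every wild-type library lay far above every mutant library. Ranges were apart in the same direction for 9.63% of the 20415 tested genes, but the gene was chosen on this contrast and nothing is read from that. The exact 95% Poisson interval, which covers counting error only, was 0 to 0.111 CPM for mutant replicate 1, 0.0188 to 0.267 CPM for mutant replicate 2 and 0.16 to 0.573 CPM for mutant replicate 3. These intervals overlap between replicates 1 and 2 and between replicates 2 and 3, but not between replicates 1 and 3. The wild-type mean was 24.1 ± 3.64 CPM and the mutant mean 0.137 ± 0.165 CPM (SD, n = 3 each). The fitted log2 fold change was -7.41 (SE 0.67). The size of this fall rests on few counts, and without mutant replicate 3, which held 11 of the 14, the log2 fold change was -8.98.

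**Figure D1:**
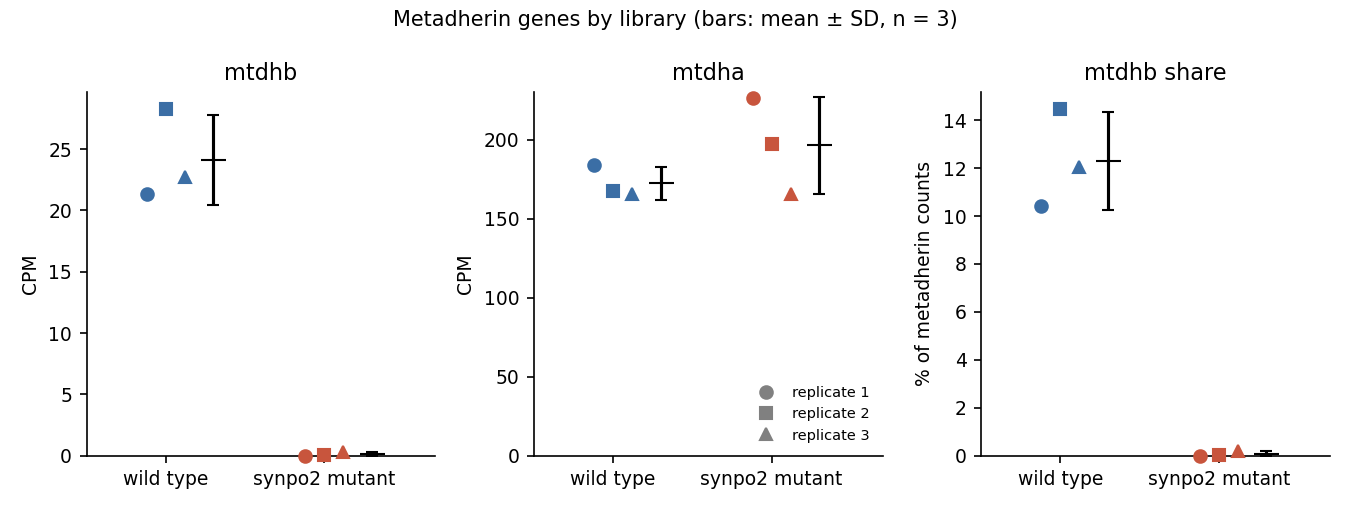
Level of mtdhb (left) and mtdha (middle) in CPM, and mtdhb as a percentage of all metadherin counts (right), for each library of the 2 genotypes, with the mean and SD of 3 libraries beside the points. mtdhb lies between 21.4 and 28.2 CPM in wild type but at or below 0.321 CPM in the mutants, whereas the mtdha points of the genotypes overlap.

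mtdha was the more abundant copy and was kept in the mutants. It lies on the minus strand of GRCz10 chromosome 19, from 33308259 to 33327185, with 12 exonic blocks and 3271 nt of counted sequence. The wild-type libraries held 23052, 6411 and 5494 mtdha counts, or 184, 167 and 166 CPM. The mutant libraries held 7534, 6483 and 5674 counts, or 226.5, 197 and 165 CPM. Mutant replicates 1 and 2 were above all wild-type libraries and mutant replicate 3 was just below them, so the ranges overlapped. The log2 fold change was 0.19 (SE 0.13, 95% interval -0.13 to 0.50), with an adjusted p of 0.628 by edgeR's quasi-likelihood test. The interval spans 0.915 to 1.42 times the wild-type level, so these libraries do not tell a modest rise of the paralogue from no change.

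Per length of counted sequence, wild-type embryos held more mtdha than mtdhb. Levels were 52.7 ± 3.12 CPM per kb for mtdha and 10.8 ± 1.64 CPM per kb for mtdhb (SD, n = 3). mtdha was 5.86, 4.03 and 4.97 times as abundant per length in wild type replicates 1 to 3. Among tested genes, 72.1% had a lower wild-type level per kb than mtdhb and 93.7% had a lower one than mtdha, the median being 3.92 CPM per kb. The coefficient of variation over the wild-type libraries was 15.1% for mtdhb and 5.92% for mtdha, both under the median of 19.4% over tested genes.

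The share of metadherin counts that fell on mtdhb does not depend on how libraries are scaled. It was 10.4% of 25730 counts in wild type replicate 1 (95% exact binomial interval 10.04 to 10.79%), 14.5% of 7494 in replicate 2 (13.7 to 15.3%) and 12.1% of 6247 in replicate 3 (11.3 to 12.9%). In mutants it was 0 of 7534 counts in replicate 1, with an exact interval of 0 to 0.049% and a limit of 0.0398% from a floor of 3 counts. It was 0.0463% of 6486 in replicate 2 (0.00954 to 0.135%) and 0.194% of 5685 in replicate 3 (0.0966 to 0.346%). The 3 wild-type intervals were apart from each other, so these libraries differed among themselves beyond counting error, by far less than they differed from the mutants. How the authors' counting treated reads that match more than 1 gene is not stated in these labels. Mutant libraries with 5674 to 7534 mtdha counts held at most 11 mtdhb counts, which bounds the reads of mtdha that could have been assigned to mtdhb there.

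With both copies summed per length, the metadherin level was 65.9, 63.8 and 60.8 CPM per kb in the wild-type libraries and 69.2, 60.3 and 50.7 CPM per kb in the mutant libraries. The ranges overlapped, and the means were 63.5 ± 2.53 and 60.1 ± 9.28 CPM per kb (SD, n = 3 each). This sum contains mtdhb and was not tested. By this measure mtdhb made up 17.1 ± 2.67% of metadherin in wild type and 0.117 ± 0.148% in mutants.

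The genes on either side of mtdhb were expressed in the mutants. Of the 12 nearest counted genes, 6 on each side, 6 passed the filter on low counts and were tested. CEP85, named for a centrosomal protein, lies 2.33 kb from the start of mtdhb. It was at 27.3, 20.7 and 23.0 CPM in wild type against 17.9, 17.5 and 18.8 CPM in the mutants. All 3 mutant libraries were below all 3 wild-type libraries, but the log2 fold change of -0.39 (SE 0.15, 95% interval -0.73 to -0.05) did not pass the test (edgeR adjusted p = 0.399). On the other side, si:dkey-199f5.8, for which no role is given, lies 7.91 kb beyond the end of mtdhb. Its levels were 84.0, 90.6 and 89.4 CPM in wild type against 100.8, 93.2 and 84.9 CPM in the mutants, and the ranges overlapped. Its log2 fold change was 0.08 (SE 0.10, 95% interval -0.16 to 0.32), and it did not pass the test either (edgeR adjusted p = 0.795).

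Of the other 4 tested neighbours, 0 passed the edgeR test over all genes, and 0 of the 6 passed by DESeq2. Over all tested genes only 0.0735% passed by edgeR and 2.20% by DESeq2, so these counts say little about so few genes. ubxn11, a UBX-domain gene, was at 0.998, 1.20 and 1.06 CPM in wild type against 0.661, 0.456 and 0.437 CPM in the mutants, apart but with an edgeR adjusted p of 0.328. PSMC4, an ATPase subunit of the proteasome, was at 223, 201 and 208 CPM in wild type against 245, 268 and 252 CPM in the mutants, also apart (edgeR adjusted p = 0.385). ATP2C1, a calcium and manganese pump of the Golgi, had a log2 fold change of 0.08 (SE 0.28), and si:dkey-199f5.6 one of 0.54 (SE 0.43), both with overlapping ranges. Relative to its own wild-type mean, each of the 6 genes held between 40.3% and 195% in every mutant library, where mtdhb held 0, 0.378 and 1.33%.

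**Figure D2:**
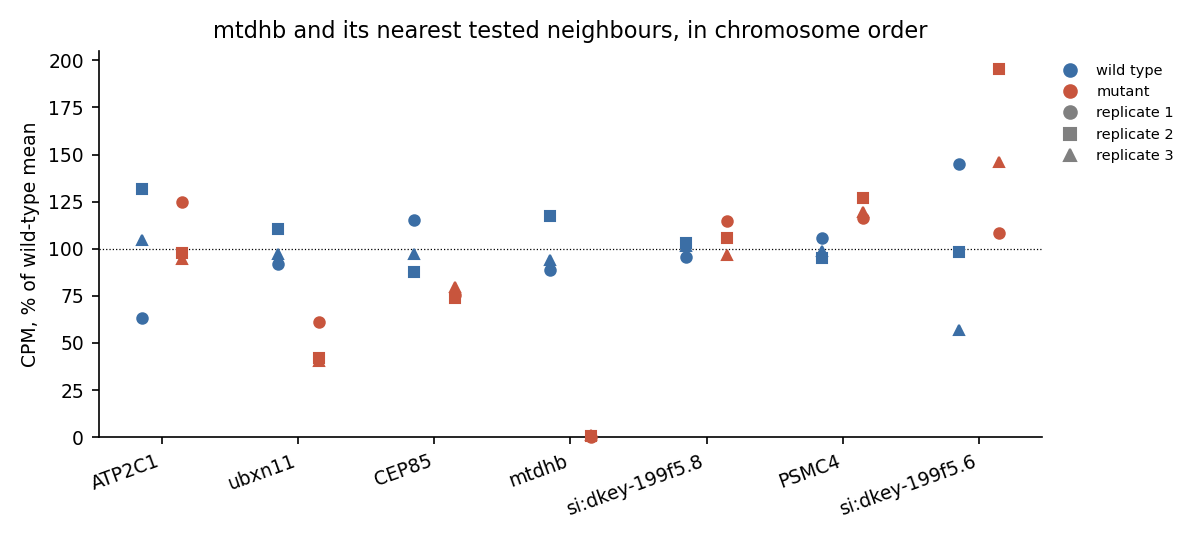
Level of mtdhb and its 6 nearest tested neighbours in each library, as a percentage of the gene's mean CPM in wild type, in the order of the genes along the chromosome. Mutant values of the neighbours run from 40.3% to 195%, and those of mtdhb from 0 to 1.33%.

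A pair of genes, both named si:ch211-11i5.3 (ENSDARG00000093892 and ENSDARG00000097581), overlap mtdhb on the opposite strand. They share 304 and 344 nt of exonic sequence with it. Neither was tested, with 0 to 12 counts in any wild-type library and 0 or 1 in any mutant library. No strand setting of the counting is stated in these labels, so mtdhb reads and those of these antisense genes cannot be told apart where their exons overlap.

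Within 1 Mb of mtdhb, 64 other genes were counted and 36 were tested. Of these, 0 passed by edgeR (background 0.0735% over all tested genes) and 0 by DESeq2 (background 2.20%). By limma-voom, which called 17 of all tested genes, 0 passed. At an unadjusted p under 0.05, 4 of 36 passed by edgeR, beside 11.2% over all tested genes. There were 14 genes below and 22 above wild type, with a median log2 fold change of 0.10, beside 0.01 over all tested genes. The lowest value belonged to ubxn11 (-1.06) and the highest to nek11 (1.098), a NIMA-related kinase gene. The mutant range lay below the wild-type range for 2 of the 36 and above it for 5, beside 9.63% and 8.45% over all tested genes.

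**Figure D3:**
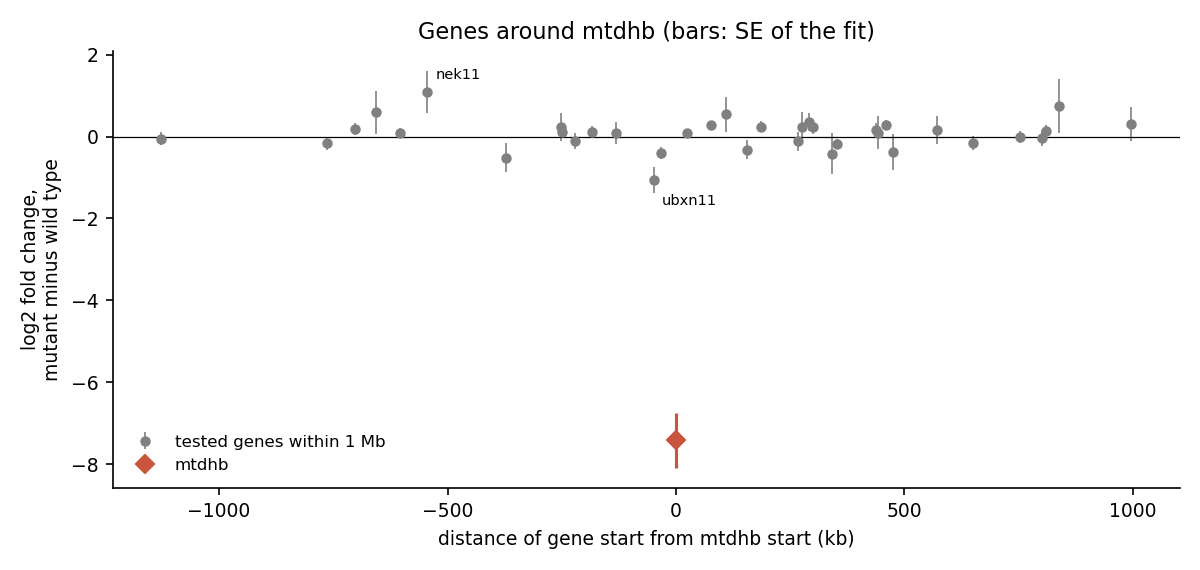
Log2 fold change (mutant minus wild type, with the SE of the fit) of mtdhb and of the 36 tested genes within 1 Mb, against the distance between gene starts in kb. mtdhb lies at -7.41, and the other genes lie between -1.06 and 1.098.

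Within 5 Mb, 164 other genes were tested and 0 passed by edgeR, with 11 at an unadjusted p under 0.05, a smaller share than the 11.2% over all tested genes. By DESeq2 1 of the 164 passed, also under the background of 2.20%. This was TXNIP (ENSDARG00000070000), which encodes a thioredoxin-interacting protein and lies 1.18 Mb from mtdhb. It was at 6.30, 6.23 and 5.61 CPM in wild type against 1.83, 1.67 and 1.95 CPM in the mutants, with no overlap. Its log2 fold change was -1.73 (SE 0.20), with an adjusted p of 0.0546 by edgeR and 1.43e-11 by DESeq2.

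Around mtdha, the 3 nearest counted genes on each side held 5 tested genes, and 0 of them passed by edgeR or DESeq2. With backgrounds of 0.0735% and 2.20% over all tested genes, a count of 0 in so few genes says little. RRM2B, a ribonucleotide reductase subunit gene known in mammals as a p53 target, lies 2.07 kb from mtdha. It was at 52.2, 77.3 and 31.3 CPM in wild type against 218, 95.8 and 49.5 CPM in the mutants, with overlapping ranges and an edgeR adjusted p of 0.481. LAPTM4B, a lysosomal membrane protein gene on the other side, was at 36.7, 26.6 and 38.9 CPM in wild type against 25.2, 22.0 and 26.2 CPM in the mutants. Its ranges were apart, and it differed by -0.48 on the log2 scale (SE 0.17, edgeR adjusted p = 0.385). The ribosomal protein gene RPL30, the antizyme inhibitor gene AZIN1 and the proton pump subunit gene ATP6V1C1 had log2 fold changes of -0.21 (SE 0.28), 0.10 (SE 0.10) and 0.12 (SE 0.29), all with overlapping ranges.

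Genes of the pathways linked to metadherin in other vertebrates did not pass the test. Across 5 lists, 90 genes were matched and 89 tested, and 0 were called by edgeR, DESeq2 or limma-voom. Over all tested genes, 0.0735% were called by edgeR, 2.20% by DESeq2 and 17 genes by limma-voom. Few or no calls in 89 genes are thus near that background. At an unadjusted p under 0.05, 6 of 89 passed by edgeR, beside 11.2% over all tested genes. By list these were 3 of 13 MYC and LEF1 genes, 1 of 14 small RNA genes, 1 of 22 NF-kB genes, 1 of 30 PI3K-AKT genes and 0 of 13 partners. Of the 89, 56 were above and 33 below wild type, with a median log2 fold change of 0.07. Over all 20415 tested genes, 10393 were above and 10022 below, with a median of 0.01. The difference between these splits was not tested.

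The 13 tested metadherin partners had a median log2 fold change of 0.08 and a range from -0.11 to 0.76. SND1 was at 238, 259 and 256 CPM in wild type against 279.7, 277 and 244 CPM in the mutants. These ranges overlapped, and the log2 fold change was 0.09 (SE 0.10, edgeR adjusted p = 0.773). RELA, the NF-kB subunit that binds metadherin in human cells, was at 38.6, 47.3 and 43.6 CPM in wild type against 50.6, 52.7 and 50.8 CPM in the mutants. Its ranges were apart, and it differed by 0.25 on the log2 scale (SE 0.11, edgeR adjusted p = 0.458). The other partners with the smallest p were the Argonaute gene AGO2, the retinoid X receptor gene RXRA (ENSDARG00000057737) and the tight junction gene TJP1 (ENSDARG00000077506). Their log2 fold changes were 0.68 (SE 0.49), 0.16 (SE 0.12) and -0.11 (SE 0.10).

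The 14 tested genes of the silencing complex and small RNA machinery had a median of 0.17 on the log2 scale. DICER1, which cuts microRNA precursors, had the smallest p among them, with 74.3 ± 7.51 CPM in wild type against 94.1 ± 10.5 CPM in the mutants (SD, n = 3 each; edgeR adjusted p = 0.395). The Argonaute gene AGO3 and the microprocessor gene DGCR8 were at 0.68 (SE 0.59) and 0.19 (SE 0.17) on the log2 scale. AGO3 was at 2.59, 17.8 and 10.1 CPM in wild type against 16.8, 18.6 and 13.1 CPM in the mutants. AGO1, AGO2, ago3a, AGO4, DICER1, PRKRA, SND1 and XPO5 were likewise lowest in wild type replicate 1 among all libraries. DGCR8, TARBP2 and TNRC6A were instead highest there among wild-type libraries. How far the list median rests on this library was not tested. In the NF-kB pathway, with 22 tested genes and a median of -0.04, the inhibitor gene nfkbib was at 66.0 ± 5.28 and 51.3 ± 7.51 CPM (edgeR adjusted p = 0.402). The kinase regulator ikbkg and the subunit gene nfkb2 had log2 fold changes of 0.31 and -0.24.

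The 30 tested genes of the PI3K-AKT pathway had a median of 0.07 on the log2 scale. The forkhead gene foxo3b was at 15.2, 27.9 and 22.4 CPM in wild type against 54.1, 30.8 and 27.9 CPM in the mutants, and its ranges overlapped (edgeR adjusted p = 0.423). The kinase subunit gene pik3r3a, the kinase gene gsk3bb and the growth regulator TSC2 were at 0.43, 1.47 and -0.25. Among 13 tested genes of the MYC and LEF1 list, with a median of 0.08, MNT (ENSDARG00000101859), a MAX-binding repressor, had the smallest p. It was at 37.1 ± 0.478 CPM in wild type against 28.7 ± 1.30 CPM in the mutants (SD, n = 3 each; edgeR adjusted p = 0.315). LEF1, a Wnt-responsive transcription factor, had a log2 fold change of 0.33 (SE 0.13, edgeR adjusted p = 0.418), while MYCN, a MYC family gene, was at 0.27 and MXI1, a MYC antagonist, at -0.29. Ranges were apart for MNT, LEF1 and MYCN and overlapped for MXI1 and all other tested genes of this list. Over all tested genes, ranges were apart for 9.63% with mutants lower and 8.45% with mutants higher. Naming genes by smallest p favours ranges apart.

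**Figure D4:**
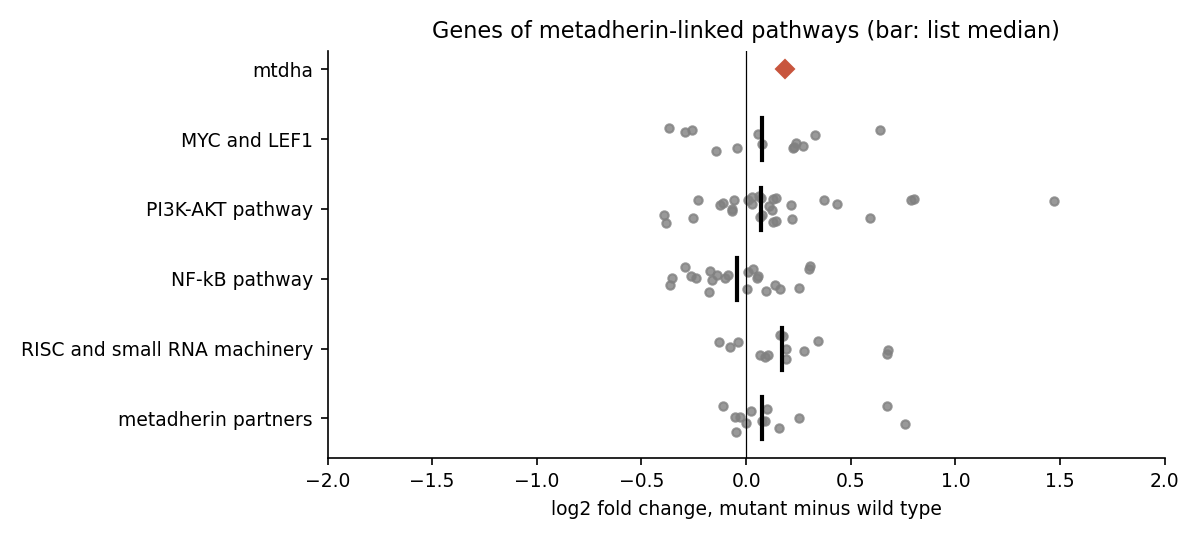
Log2 fold change (mutant minus wild type) of each tested gene in 5 lists of metadherin-linked pathways, with a bar at each list's median, and of mtdha. List medians lie between -0.04 and 0.17, and 0 of the 89 genes passed the edgeR test (background 0.0735% over all tested genes).

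The genes whose pattern over the 6 libraries was most like that of mtdhb were sought by Pearson's r of log2 CPM among 17330 other tested genes averaging 1 CPM or more. The points of this measure share the libraries and the genotype difference that chose mtdhb, and r is blind to the size of a fall. Within the mutants the mtdhb values rest on 0, 3 and 11 counts in replicates 1 to 3. All 5 genes named next also rose in that order of replicates. How far the ranking rests on these few counts was not tested. The closest were SAMD11 (r = 0.998), the transcription factor gene DMRTA2 (0.997), acta2 (0.994), the RNA polymerase III factor gene BRF1 (0.994) and the homeobox gene homezb (0.994). SAMD11 was at 28.7 ± 0.267 CPM in wild type against 18.1 ± 1.58 CPM in the mutants, and acta2, smooth muscle actin, at 1.92 ± 0.171 and 0.437 ± 0.120 CPM (SD, n = 3 each). Their log2 fold changes of -0.66 and -2.13 are far smaller in size than that of mtdhb. Of the 5, 0 lie on chromosome 16, which says little for so few genes. The same measure for mtdha was -0.71.

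**Figure D5:**
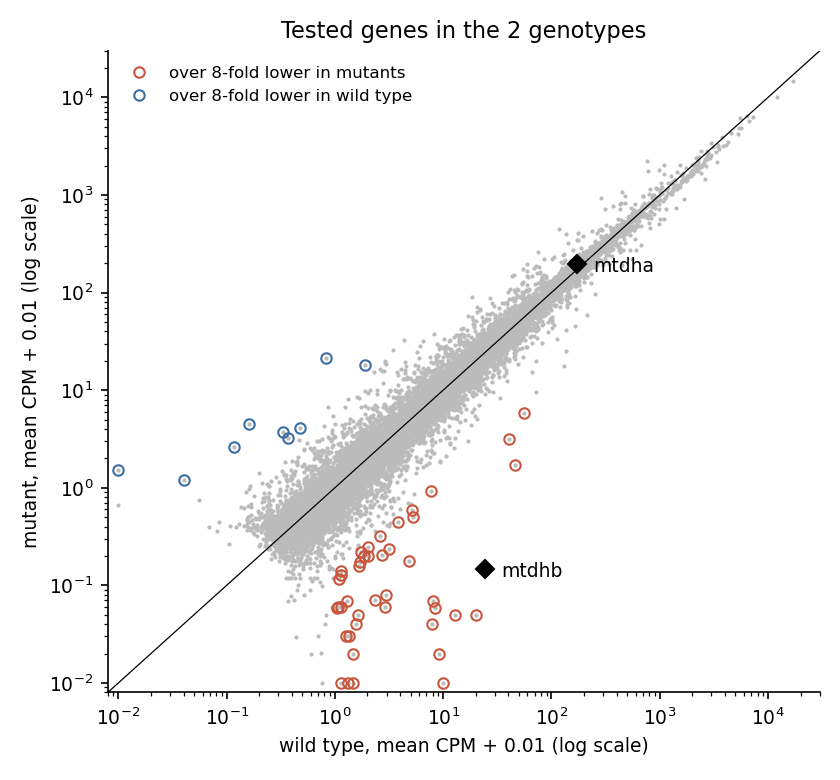
Mean CPM (plus 0.01, log scales) of the 20415 tested genes in wild type and mutants, with the line of equal levels. mtdhb is at 24.1 and 0.137 CPM, below the line, and mtdha at 172 and 196 CPM, near it. Open circles are genes at 1 CPM or more in 1 genotype and more than 8-fold lower in the other, 43 of them lower in the mutants and 9 lower in wild type.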

How the data were processed

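Whole-embryo RNA libraries of 2 genotypes, 3 per genotype, were used, grouped by sample title. The authors deposited raw counts per gene, 1 table per library, with gene coordinates and exonic length. The submitters' processing notes name Trimmomatic 0.36, STAR 2.5.2b and the GRCz10 build. The labels do not state the counting program, strand setting or annotation release, which are thus not given here. Symbols were matched for 25752 of 31484 gene IDs and are printed unaltered.

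A filter on low counts (filterByExpr, edgeR 4.0.16, R 4.3.3) left 20415 genes. edgeR's quasi-likelihood F test (robust, TMM scaling, two-sided, no covariate) compared mutant with wild type, with Benjamini-Hochberg adjustment over all tested genes and a threshold of 0.05. The SE is the absolute log2 fold change divided by the square root of F. Each p-value sets the difference between genotypes against the spread between libraries of the same genotype, which the fit moderates across genes. The smallest chi-square per degree of freedom between libraries of a group was 31.5, so none was a duplicate. List members were matched by symbol, or otherwise, with a final a or b removed, by a symbol in human style. Named genes were the metadherin genes, 6 neighbours on each side of mtdhb and 3 of mtdha, called genes within 5 Mb, the 5 most like in pattern, up to 4 members per list by smallest p, and synpo2 genes. TXNIP, nek11, SND1, AGO1, ago3a, AGO4, PRKRA, XPO5, TARBP2 and TNRC6A lie outside this rule and were chosen after their values were seen. The members and lists were chosen with earlier results of these data known. Alternatives were other scalings, filters, DESeq2 1.42.0, limma-voom (limma 3.58.1), non-robust dispersion, a replicate block, thinning of wild type replicate 1, each library left out, other windows and a threshold of 0.01. Code was tested on simulated data.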

Additional observations from a re-analysis of the deposited data

How the results depend on the processing

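The mtdhb log2 fold change ranged from -8.98 to -6.83 when libraries were left out in turn (lowest without mutant replicate 3). In every other setting it moved by less than the spread between replicates (SD 1.13 of log2 CPM within genotypes). This spread includes mutant libraries with 0 to 11 counts, and the value with limma-voom was -8.18. mtdha stayed above wild type and uncalled in every setting (0.09 to 0.30, adjusted p from 0.37 to 0.93). No gene within 1 Mb of mtdhb and no pathway gene was called in any setting. Where a setting called few or 0 genes over all, as counted below, this was nearly or wholly fixed and says little. Within 5 Mb the count was 1 without the low-count filter and also 1 with DESeq2, TXNIP in both. Its adjusted p by edgeR ranged from 0.037 (no filter) to 0.386 (without mutant replicate 2). Over all genes the count of 15 was 450 with DESeq2, 44 with no filter, 8 with the stricter filter, 3 at a threshold of 0.01, and 0 to 16 with a library left out (0 without mutant replicate 2, 2 without mutant replicate 1 or wild type replicate 3, 8 without mutant replicate 3). The cause of these shifts was not tested. With the replicate block it was 0 and mtdha was at 0.18. Deviations of same-numbered libraries from their genotype means had correlations of -0.23, -0.0971 and 0.182, and not every library correlated best with its own number. With 3 libraries per genotype these values cannot decide whether same-numbered libraries were paired, which the labels do not state. Among neighbours, 3 changed sign with a library left out, over ranges of -0.16 to 0.36 for ATP2C1, -0.42 to 0.13 for RPL30 and -0.25 to 0.36 for ATP6V1C1. Depth limits mtdhb in mutants, where 3 counts correspond to 0.0874 to 0.0912 CPM.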

Other observations

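mtdhb was 1 of 43 tested genes that were at 1 CPM or more on average in wild type and more than 8-fold lower in mutants, 0.247% of 17379 genes at that level. In the opposite direction, 9 of 17181 genes (0.0524%) averaged 1 CPM or more in mutants and were more than 8-fold lower in wild type. Ranges were apart for 39 of the 43 and for 6 of the 9, beside 9.63% and 8.45% over all tested genes. Of the 42 genes lower in mutants other than mtdhb, 11 passed the edgeR test, beside 0.0735% over all tested genes. The choice by fold favours both ranges apart and a pass. Of the 4 among the 43 that overlapped, si:ch211-160d14.9 was high in wild type replicate 1 alone (14.7 CPM). The remaining 3 of these 4 each had 1 wild-type library within the mutant range. The other 3 of the 9, stbd1, ugt1b7 and si:ch211-106k21.5, were high in mutant replicate 1 alone (51.5, 10.5 and 8.72 CPM). These thresholds and the genes named here were chosen after the values were seen, and the counts are a description. Of the 43, 3 had a higher wild-type level than mtdhb, the parvalbumin gene pvalb1 and the clone-named si:dkey-83k24.5 and si:ch1073-340i21.3. Their mutant means were 1.69 to 5.81 CPM. Among the 38 genes with a mutant mean under 0.5 CPM, mtdhb had the highest wild-type level. By the ratio of means, 8 of the 43 had a larger fold than mtdhb, and 4 had 0 counts in every mutant library.

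Wild-type levels of the 43 genes varied widely between libraries, with a median coefficient of variation of 41.8% (10.96 to 153%). mtdhb was at 15.1%, and 2 of the 43 were lower, beside a median of 19.4% over all tested genes. The choice by a high wild-type mean favours genes with uneven wild-type levels, so nothing is read from the place of mtdhb among them. Besides mtdhb, otoa, named for otoancorin, was on chromosome 16, 19.6 Mb away, with 2.61 ± 2.37 CPM in wild type against 0.307 ± 0.158 CPM in the mutants (SD, n = 3 each) and overlapping ranges.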
